A study of Mus musculus with 4 samples.

Results

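The cells described here were the mesenchymal cells of the maxillary and the mandibular mouse molar at postnatal day 1 (P1), compared between the jaws. They were chosen by their counts: a barcode needed at least 1000 UMIs (tags that each mark 1 captured RNA molecule), under 10% of them from mitochondrial genes, at least 10 UMIs of the collagen genes Col1a1, Col1a2 and Col3a1 per 10000, and no UMI of Epcam, Cdh1, Ptprc or Pecam1, which mark epithelium, blood cells and endothelium. A barcode that occurred in both P1 libraries was kept in the maxillary library only. This gave 13815 of the 56940 deposited barcodes, 9023 from the maxillary and 4792 from the mandibular library. Because the 7 genes named above and the mitochondrial genes selected the cells, their levels are no finding and they were left out of every comparison.

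The series holds 4 single-cell RNA libraries, 1 for each jaw at E15.5 and at P1, made from enzyme-dissociated molar tooth organs of wild-type mice whose genotype the labels give as WTB6. The embryonic libraries carry the age E15 in their labels and E15.5 in the protocol, and the postnatal ones P1 in the labels and P0/P1 in the protocol. No animal carried an engineered allele or received a treatment. Per the study's methods 6 tooth organs were pooled into each sample. Each jaw at each stage is therefore 1 sample, no test between the jaws was possible, and the intervals given below cover counting error only and not differences between animals.

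Upper and lower jaw both grow from the first pharyngeal arch, and neural crest cells that enter it form the bone, connective tissue and dental mesenchyme of both. Endothelin-1 signaling in the lower part of the arch turns on Dlx5, Dlx6 and Hand2 and gives it mandibular identity, while the upper part, which lacks this signal, expresses Pou3f3 and other maxillary genes. In the tooth germ, the mesenchyme under the enamel organ becomes the dental papilla, whose outer cells form the dentin-secreting odontoblasts, and the surrounding dental follicle forms the periodontal ligament, cementum and part of the alveolar bone.

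Of the genes that show the jaw of origin, Hand2, a transcription factor gene of mandibular identity, and Pou3f3, one of maxillary identity, differed in opposite directions between these libraries. Their promoters are shown because both genes kept their direction in the mesenchyme of both stages. The windows run from 250 bases before to 50 bases after the RefSeq start site in GRCm38.p6, both on the + strand, at chr8:57320733-57321032 for Hand2 and chr1:42695518-42695817 for Pou3f3. Capitals mark TAATTA, which reads the same on both strands and is the core that homeodomain proteins such as Dlx, Msx and Lhx factors can bind.
Hand2: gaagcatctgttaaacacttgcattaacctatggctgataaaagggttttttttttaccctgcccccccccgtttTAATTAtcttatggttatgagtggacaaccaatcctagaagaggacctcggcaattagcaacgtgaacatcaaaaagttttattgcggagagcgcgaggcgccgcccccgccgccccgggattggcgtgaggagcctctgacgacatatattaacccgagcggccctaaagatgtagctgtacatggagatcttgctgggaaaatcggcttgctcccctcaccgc
Pou3f3: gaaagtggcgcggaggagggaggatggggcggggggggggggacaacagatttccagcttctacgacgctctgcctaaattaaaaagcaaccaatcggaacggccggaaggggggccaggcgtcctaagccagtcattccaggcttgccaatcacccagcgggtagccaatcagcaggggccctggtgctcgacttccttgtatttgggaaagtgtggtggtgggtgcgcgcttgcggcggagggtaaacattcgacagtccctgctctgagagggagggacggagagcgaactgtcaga
The Hand2 window held 1 copy of TAATTA, at base 76, and the Pou3f3 window held none. Of the 32851 promoter windows of the same length, 5.29% held it, and of the 4052 windows of the genes compared below 2.81%. A match is a description of these letters and not of a bound site.

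The barcodes of the P1 libraries were checked before the comparison, since the libraries shared barcodes. The P1 maxillary and mandibular libraries had 7131 barcodes in common, 38.1% of the maxillary and 36.8% of the mandibular ones, while every other pair of libraries shared between 28 and 70. A shared barcode had more UMIs in the maxillary library, with a median log2 ratio of 2.07 and a 95th percentile of 2.18. Summed over the gate, the maxillary copies and the mandibular copies that the rule drops differed by 2-fold or more in 6 of 3808 genes, or 0.158%.

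The maxillary members therefore fell into 2 sets. The 4092 whose barcode also occurred in the mandibular library had a median of 12330 UMIs, close to the 11521 of the mandibular members, and are called the shared-barcode cells. The other 4931, the maxillary-only cells, had a median of 2615 UMIs. Of the shared-barcode cells 97.0% reached 5000 UMIs, of the mandibular members 88.4% and of the maxillary-only cells 7.22%.

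**Figure D1:**
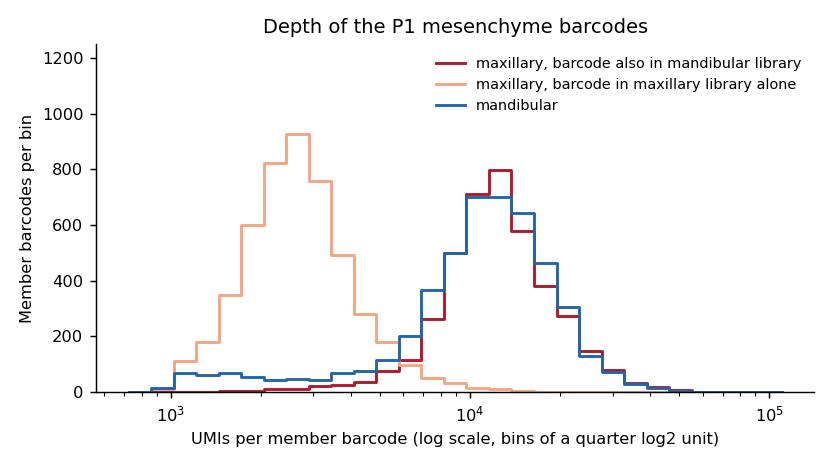
Number of P1 mesenchyme barcodes (vertical axis) by UMIs per barcode (horizontal log axis) for the 3 sets of members. The shared-barcode maxillary cells and the mandibular cells peak together, with medians of 12330 and 11521 UMIs, and the maxillary-only cells lie lower, with a median of 2615.

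The RNA of these sets differed more than the jaws did. Between maxillary-only and shared-barcode cells 595 of 4125 genes, or 14.4%, were past 2-fold. Set against the mesenchyme of the E15.5 maxillary molar, chosen by the same gate, the shared-barcode cells differed in 14.3% of 4152 genes and the maxillary-only cells in 1.74% of 3855. In the mandible, P1 and E15.5 differed in 10.4% of 4031 genes.

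Genes of late tooth development followed the same split. Bglap, which encodes the bone and dentin protein osteocalcin, stood at 164 CPM (UMIs per 1000000 UMIs of the cells summed) in shared-barcode cells, 252 CPM in mandibular cells, 1.94 CPM in maxillary-only cells and 0.415 CPM at E15.5 in the maxilla. Of the 295 genes that were at least 2-fold higher at P1 than at E15.5 in the mandible, 245 were so in the shared-barcode cells (median log2 ratio 1.91) and 38 in the maxillary-only cells (median 0.21). The Y-linked gene Ddx3y was at 11.6, 7.69, 51.6 and 54.1 CPM in the same order of sets, and Alx1, a gene of the upper face, was at 0.526, 7.79, 141 and 13.96 CPM. Pax3, a factor of neural crest and muscle precursors, was likewise at 0.725, 2.19, 156 and 17.7 CPM. The maxillary-only cells thus carried a P1 label and differed from E15.5 maxillary cells in fewer genes than from the shared-barcode cells, while Alx1 and Pax3 set them apart from both. Whether they share material with the E15.5 library was not tested. The main results below are given over all maxillary members and over the shared-barcode cells alone.

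The mesenchyme label was checked against genes that the gate did not use. Pdgfra, a receptor of mesenchymal cells, was at 227 CPM in the maxillary and 208 CPM in the mandibular members, against 22.3 and 27.8 CPM in the P1 cells that failed both parts of the gate. Prrx1, a homeobox gene of craniofacial and limb mesenchyme, was at 313 and 248 CPM against 10.9 and 6.20 CPM. Krt5, a keratin of epithelium, was at 7.74 and 13.5 CPM against 811 and 1002 CPM, and Cdh5, a cadherin of endothelium, at 1.06 and 2.91 CPM against 109 and 75.6 CPM. Sox10, a neural crest and Schwann cell gene, was no lower in the members, at 3.61 and 2.27 CPM against 1.57 and 1.35 CPM. Alas2, a red blood cell gene, was at 7.14 and 12.2 CPM against 6.65 and 13.4 CPM. Myod1, a muscle gene, was at 0.287 and 1.59 CPM against 1.31 and 1.31 CPM. Joint clustering of the members gave 22 clusters, of which 6 were led by genes of other lineages. These were Schwann cells, enamel epithelium (Enam, Krt14), red blood cells (Hbb-bt, Alas2), and muscle precursors and muscle (Pax7, Tnnt3). The last had neural and hormone genes (Stmn2, Gh, Cga) among its leading genes. The 6 clusters held 470 of the maxillary and 432 of the mandibular members, or 5.21% and 9.02%, so the gate was not free of other cells.

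Few barcodes lay near the threshold on collagen. In the maxillary library 94 barcodes had 9 to 10 and 77 had 10 to 11 collagen UMIs per 10000, and in the mandibular library 75 and 35 did. The lowest member stood at 10.0 and the highest barcode outside at 9.997 in the maxilla, with medians of 53.7 and 63.7 among maxillary and mandibular members.

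The jaws were then compared across genes. Of the 3912 genes with at least 50 CPM in either jaw, 44 were at least 2-fold higher in the maxilla, or 1.12%, and 58 in the mandible, or 1.48%. With shared-barcode cells only, 48 of 3904 genes (1.23%) were higher in the maxilla and 84 (2.15%) in the mandible. The median log2 ratio of all genes compared was 0.04. Hand2, Pitx1, Gsc, Pou3f3, Lhx6 and Tfap2b stayed under 50 CPM in both jaws at P1, so they are outside these counts and are given by their levels. A gene that is low in 1 jaw enters these counts only if it is high in the other, so its being counted and its being past 2-fold are not independent. Gene lists were therefore also counted over genes with at least 100 UMIs in both jaws together, a rule added after the data were seen. By that rule 331 of 15588 genes (2.12%) were past 2-fold toward the maxilla and 395 (2.53%) toward the mandible, with a median log2 ratio of 0.06. With shared-barcode cells it was 1.38% and 3.54% of 15207 genes, with a median of 0.05. Of the 44 genes, 32 stayed past 2-fold with the shared-barcode cells and 2 turned around, and of the 58 genes 56 stayed.

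Among the patterning genes Hand2 had the widest ratio. It was counted 11 times in the maxillary members, a level of 0.158 CPM, and 513 times in the mandibular ones, 8.77 CPM. That is 55.5-fold higher in the mandible, with a log2 ratio of -5.79 (95% interval -6.80 to -4.94), and -6.11 with shared-barcode cells. At E15.5, in libraries that the choice of cells did not use, Hand2 was at 1.26 and 19.8 CPM.

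Pitx1, which encodes a homeodomain factor of the hind limb and the mandibular arch, followed Hand2. It stood at 8.88 CPM in the maxilla and 27.5 CPM in the mandible, a log2 ratio of -1.63 (-1.77 to -1.50), and -1.59 with shared-barcode cells. At E15.5 the levels were 62.8 and 89.8 CPM, in the same direction and under 2-fold.

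The distal Dlx genes were under 2-fold between the jaws at P1. Dlx5 was at 135 CPM in the maxilla and 112 CPM in the mandible, and Dlx6 at 16.1 and 21.6 CPM. Dlx3 and Dlx4, members of the same homeobox family, were at 90.7 and 70.6 CPM and at 69.3 and 51.6 CPM. Their log2 ratios lay between -0.42 and 0.43, and between -0.15 and 0.75 with shared-barcode cells, all under 2-fold. None of the 5 genes of the mandibular patterning list with 50 CPM in either jaw was past 2-fold, where 1.12% and 1.48% of all genes were, so a count of 0 says little about them. With 100 UMIs over both jaws, Hand2 and Pitx1 were the 2 of 11 past it toward the mandible, against 2.53% of all genes. With shared-barcode cells Gsc joined them, against 3.54% of all genes, and none was toward the maxilla with either set. Edn1, the ligand that starts the mandibular program, was at 0.244 and 0.666 CPM (0.218 CPM in shared-barcode cells), and Hand1 and Nkx3-2 were counted at most 4 times in either jaw.

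Of the maxillary genes, Pou3f3 was counted higher in the maxilla. It was at 23.5 CPM there and 8.46 CPM in the mandible, 2.78-fold (log2 1.48, 1.33 to 1.62), and 2.80-fold with shared-barcode cells. At E15.5 it was at 39.4 and 20.1 CPM. Foxl2, another gene of the upper arch, was at 0.891 and 0.188 CPM at P1, and at 0.363 CPM in the shared-barcode cells.

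Meis1 and Meis2, homeobox genes of proximal facial mesenchyme, changed direction with the set of cells. Meis2 was at 87.0 CPM over all maxillary members and 36.3 CPM in the mandible. It was at 382 CPM in the maxillary-only cells and at 9.67 CPM in the shared-barcode cells, so the log2 ratio moved from 1.26 to -1.91. Meis1 moved from 1.17 to -0.77. Irx5, a homeobox gene also listed as maxillary, was at 27.6 and 45.7 CPM, lower in the maxilla with either set.

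The transcription factor genes shared by both arches and needed for tooth formation were mostly higher in the maxilla by less than 2-fold. Of 12 genes of this list that entered the count, 1 was past 2-fold toward the maxilla, where 1.12% of all genes were, and the median log2 ratio was 0.46 (0.48 with shared-barcode cells), against 0.04 over all genes. That gene was Pax9, without which teeth arrest at the bud stage, at 106 CPM in the maxilla and 41.3 CPM in the mandible (log2 1.36, 1.29 to 1.42), and 1.15 with shared-barcode cells. Lhx6, a LIM homeobox gene of oral mesenchyme, was at 36.5 and 15.2 CPM (log2 1.26), and Tfap2b, a neural crest factor, at 39.9 and 10.3 CPM (log2 1.96). With shared-barcode cells these were 1.44 and 1.81. Msx1 and Barx1, which act in dental mesenchyme, and Lhx8, a partner of Lhx6, had log2 ratios of 0.56, 0.54 and 0.71, and of 0.68, 0.76 and 0.61 with shared-barcode cells. Twist1, a factor of cranial mesenchyme, moved from a log2 ratio of 0.88 to 0.26 with shared-barcode cells. Prrx1 turned around, from 0.34 to -0.34, with 195 CPM in the shared-barcode cells and 248 CPM in the mandible. With 100 UMIs over both jaws, Pax9, Lhx6 and Tfap2b were the 3 of 17 past 2-fold toward the maxilla with either set of cells. Of all genes 2.12% were, and 1.38% with shared-barcode cells. At E15.5, 8 of the 12 counted genes were past 2-fold and all 8 higher in the maxilla, against 2.61% of all genes, although of the 8 only Msx1, Prrx2 and Twist1 had 50 CPM in the mandible too. Pax9 was at 160 and 41.9 CPM there.

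To read these genes at a like cell makeup, the ratio was taken within 7 clusters that held at least 100 shared-barcode and 100 mandibular cells and nearly no maxillary-only ones. The patterning and odontogenic lists had been kept out of the clustering. The clusters were led by Ptx3 and Rspo4, by Enpp6 and Alpl, by Col19a1 and Mapk10, by Dspp and Bglap, by the cell cycle genes Top2a and Mki67, by Gabrg3 and Cntn6, and by Dpt and Gdf10. The cluster led by Dspp was odontoblast-like, with 8 of 10 odontoblast markers at least 2-fold above the other cells, although 4 bone markers were also among its 10 leading genes.

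Within these 7 clusters Hand2, Pitx1 and Pou3f3 were mostly past 2-fold and Pax9 was not. Hand2 had no UMI in the shared-barcode cells of the 3 clusters with 20 or more UMIs, against 31, 57 and 52 UMIs in mandibular cells, which puts it at least 6.29-fold, 20.8-fold and 23.9-fold higher there with 3 counts per cluster in place of 0. Pitx1 was lower in the maxilla in 7 of 7 clusters, by 2-fold or more in 6. Pou3f3 was higher in the maxilla in 5 of 6 clusters, by log2 ratios from 2.32 to 3.26, and lower in the cluster led by Dpt and Gdf10 (log2 -1.44). In the proliferating cluster Pou3f3 was at 19.3 CPM against 2.68 CPM.

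Pax9 ran from -0.33 to 0.69 over the 7 clusters and passed 2-fold in none. In the cluster led by Ly6a, Clec3b and Ccn3, outside these 7, Pax9 was at 108 CPM in shared-barcode cells and 11.8 CPM in mandibular cells. Over all clusters with 50 CPM or more of Pax9, 2 of 8 were past 2-fold with shared-barcode cells. Lhx6 ran from -0.56 to 0.57 in the 7 clusters, but was at 58.1 and 4.75 CPM in a cluster led by Pappa2 and Mia, and was past 2-fold in 2 of 4 clusters at 50 CPM or more. Tfap2b ran, in 5 of the 7 clusters, from -0.21 to 2.15. Barx1 was higher in the maxilla in 7 of 7 clusters and Msx1 in 6, but Lhx8 was lower in 5 of 7, with a median of -0.16. Runx2, a factor of bone and tooth formation, had a log2 ratio of 0.31 over all members and was lower in the maxilla in 7 of 7 clusters, with a median of -0.21. None of these 4 genes passed 2-fold in these 7 clusters. Over all clusters at 50 CPM or more, with shared-barcode cells, Msx1 and Barx1 were past it toward the maxilla in 2 of 11 each, Lhx8 in 3 of 6 and Runx2 in 0 of 9. Gsc, a homeobox gene of the mandibular arch, was at 8.16 CPM over all maxillary members, 4.30 CPM in the shared-barcode cells and 9.74 CPM in the mandible. It was lower in the maxilla in 5 of 5 clusters, by 2-fold or more in 3. Of the 35 patterning and odontogenic genes with 20 or more UMIs in any of these clusters, Hand2, Pitx1, Gsc and Pou3f3 passed 2-fold in 2 or more clusters, and the other 31 in at most 1.

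**Figure D2:**
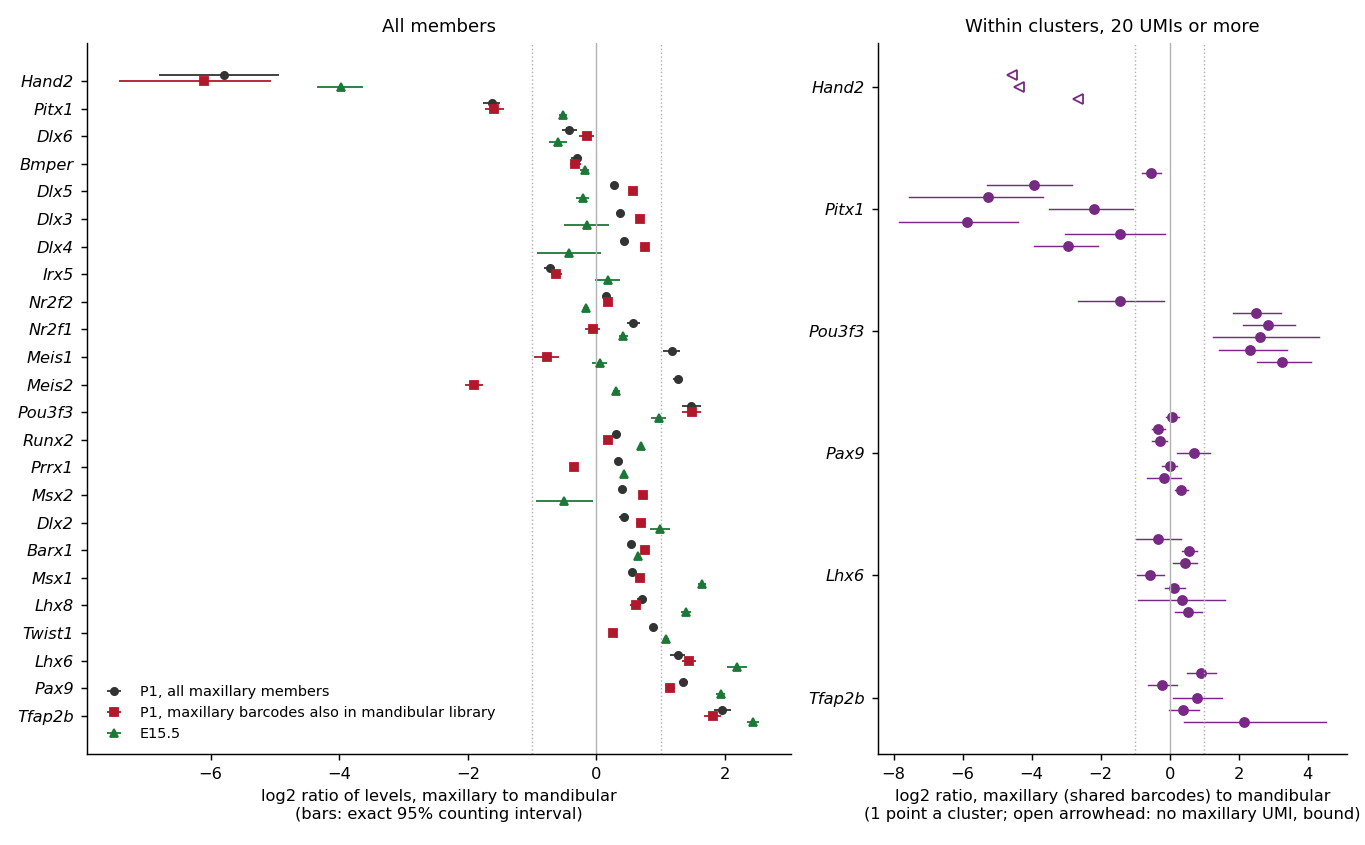
Left, log2 ratio of maxillary to mandibular levels (horizontal axis, bars for the exact 95% counting interval) of patterning and odontogenic transcription factor genes at P1 over all members, at P1 over shared-barcode cells and at E15.5, with dotted lines at 2-fold. Right, the ratio within clusters for 6 of them, where Hand2 and Pitx1 lie left of 0 in every cluster shown, Pou3f3 lies right of it in 5 of 6 and Pax9 stays inside the 2-fold lines.

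Among the 58 genes higher in the mandible, those at least as abundant in the mesenchyme as in the other cells are given by their largest ratios. Ptgds, which encodes prostaglandin D synthase, was at 1.42 CPM in the maxilla and 66.4 CPM in the mandible, and Ly6a, the stem cell antigen Sca-1, at 1.42 and 52.2 CPM. Igfbp6, a binding protein of IGF2, was at 16.5 and 158 CPM, Clec3b, which encodes tetranectin, at 21.4 and 175 CPM, and Ccn3, a matricellular protein gene, at 6.39 and 65.7 CPM. In log2 terms these 5 genes lay between -5.55 and -3.03, and between -5.50 and -2.79 with shared-barcode cells.

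Tendon genes were counted as a list. Tnmd, which encodes tenomodulin of the tendon cell surface, was at 11.2 CPM in the maxilla and 297 CPM in the mandible (log2 -4.74, -4.84 to -4.63). Kera, a corneal and tendon proteoglycan gene, was at 10.6 and 76.2 CPM, Thbs4, a thrombospondin of tendon matrix, at 21.6 and 124 CPM, and Fmod, which encodes fibromodulin, at 21.9 and 65.5 CPM. These 4 reached 50 CPM in the mandible alone. With 100 UMIs over both jaws, 5 of 10 tendon genes were past 2-fold toward the mandible, against 2.53% of all genes. None was toward the maxilla, and the median log2 ratio was -1.02. With shared-barcode cells it was 5 of 9, against 3.54% of all genes, and a median of -1.46. Over shared-barcode cells Tnmd was at 8.47 CPM. At E15.5 Tnmd was at 57.4 and 96.5 CPM.

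Most of these counts came from a few clusters. Of the 12 leading genes, 8 had their largest share of mandibular UMIs in a cluster led by Ly6a, Clec3b and Ccn3, 3 in a tendon-like cluster led by Tnmd, Kera and Scx, and Ptgds in one led by Ptgds, Vtn and Otor. That share ranged from 43.9% to 94.8%, with 89.8% for Clec3b in the first and 93.5% for Tnmd in the second cluster. The cluster of Ly6a and Clec3b held 1094 mandibular, 105 shared-barcode and 29 maxillary-only cells, and the tendon-like one 301, 3 and 28. The cluster led by Ptgds held 28, 2 and 316, so 91.6% of the mandibular Ptgds UMIs came from 28 cells. A cluster mostly from 1 library may be that library and not a cell type, and how much tissue around the tooth each dissection carried was not tested.

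Cluster levels were also weighted to the mean makeup of both jaws, over the clusters with at least 50 cells of each jaw. Clusters under that limit were left out. Among them were the tendon-like cluster (31 maxillary and 301 mandibular cells) and those led by Ptgds (318 and 28) and Pax3 (1322 and 0). The genes past 2-fold then fell to 10 in the maxilla and 19 in the mandible, which reflects both the weighting and this removal. Clec3b then stood at 60.7 and 136 CPM, Igfbp6 at 51.8 and 110 CPM and Ccn3 at 23.6 and 50.4 CPM, all just past 2-fold. The log2 ratio of Tnmd was -1.26, at a level under 50 CPM and so outside the 19, and that of Thbs4 -1.13. Of the 49 genes named by rule that were past 2-fold at 50 CPM or more, 25 stayed past it and 24 did not. Toward the mandible those lost included Fmod (-0.33), Kera (0.43, turned around), Ebf2 (-0.53), Meox2 (-0.30), Igf1 (-0.44), Igf2 (-0.87), Phex (-0.90), Sema3c (-0.81) and Atf3 (-0.35). The tendon-like cluster, left out of the weighting, held 91.5% of the mandibular Kera UMIs and 73.8% of those of Fmod. Toward the maxilla they included Dcc (0.99), Ncam2 (0.70), Lsamp (0.61), Nrg3 (0.85), Mapk10 (0.23), Kctd8 (0.85), Meis2 (0.53), Sfrp2 (0.28) and Pax9 (0.55). Dlk1, Zim1 and Cntn6, described below, were outside the 10 and the 19 as well. Of the genes under 50 CPM, Hand2 (-5.19), Pitx1 (-1.77), Pou3f3 (1.89) and Tfap2b (1.16) stayed past 2-fold and Lhx6 (0.65) and Meis1 (0.51) did not.

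Ebf2 and Meox2, both transcription factor genes, were also higher in the mandible. Ebf2, which encodes an early B-cell factor family member of mesenchymal progenitors, was at 32.8 CPM in the maxilla and 191 CPM in the mandible, and at 118 and 390 CPM at E15.5. Meox2, a homeobox gene of the palate and of muscle connective tissue, was at 19.7 and 80.2 CPM, and at 67.8 and 196 CPM at E15.5. Both were lower still in the shared-barcode cells, at 18.9 and 10.3 CPM.

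Some insulin-like growth factor genes were higher in the mandible as well. Igf2, the fetal growth factor expressed from the paternal allele, was at 296 CPM in the maxilla and 871 CPM in the mandible (log2 -1.56, -1.58 to -1.53), and Igf1 at 161 and 394 CPM. The maternally expressed RNA H19, its neighbor, was at 397 and 780 CPM and stood just under 2-fold, and at 312 CPM (log2 -1.32) in the shared-barcode cells. Of the 11 genes of the list, Igf1, Igf2 and Igfbp6 were past 2-fold toward the mandible and none toward the maxilla, also with 100 UMIs over both jaws, where 2.53% of all genes were, and the median log2 ratio was -0.54. With shared-barcode cells 5 of 11 were by that rule, against 3.54% of all genes, with a median of -0.87 and Igf1 at 115 CPM. Dlk1, another paternally expressed gene of growth control, was at 371 and 1204 CPM, and Zim1, also imprinted, at 37.0 and 97.0 CPM, against 293 and 35.4 CPM in shared-barcode cells. Both were chosen after their values were seen.

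Igf2 differed inside clusters too. It was lower in the shared-barcode cells in all 7 clusters, by log2 ratios from -1.38 to -0.18, and was past 2-fold in 4. H19 was lower in all 7 and past 2-fold in 4 of the 6 where it reached 50 CPM. In the odontoblast-like cluster Igf2 was at 31.2 CPM against 71.7 CPM.

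Some genes of dentin and bone matrix were higher in the mandible. Dspp, which encodes dentin sialophosphoprotein of odontoblasts, was at 41.8 and 124 CPM, and Phex, an endopeptidase of mineralizing cells, at 44.2 and 94.2 CPM. Col11a2, a fibrillar collagen chain, was at 17.7 and 53.2 CPM. All 3 reached 50 CPM in the mandible alone. With 100 UMIs over both jaws, they were the 3 of 14 genes past 2-fold toward the mandible, against 2.53% of all genes. Pthlh, a ligand of the dental follicle, was the 1 toward the maxilla, against 2.12%, and the median log2 ratio was -0.63. With shared-barcode cells 2 and 1 of 14 were, against 3.54% and 1.38% of all genes, with a median of -0.45. With the shared-barcode cells Dspp was at 52.4 CPM (log2 -1.24) and Phex at 54.1 CPM (log2 -0.80). Inside the odontoblast-like cluster Dspp was at 380 CPM in 368 shared-barcode cells and 965 CPM in 401 mandibular cells. The jaw difference of Dspp was not confined to the members. In the P1 cells that failed both parts of the gate it was at 216 and 563 CPM (log2 -1.38). Phex was at 2.40 and 2.33 CPM there and Col11a2 at 4.38 and 9.13 CPM.

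Muscle, enamel and globin RNA was also counted among the members. Acta1 (skeletal actin) was at 11.3 and 166 CPM and Tnnt3 (troponin T) at 5.17 and 50.9 CPM. With 100 UMIs over both jaws, 10 of 12 muscle genes were past 2-fold toward the mandible, against 2.53% of all genes. None was toward the maxilla, and the median log2 ratio was -2.78. With shared-barcode cells 11 of 12 were past 2-fold toward the mandible, against 3.54% of all genes, with a median of -2.85. Amelx, the amelogenin gene of enamel-forming epithelium, was at 27.7 and 177 CPM in the members and at 3328 and 13474 CPM in the P1 cells that failed both parts of the gate. Of 4 globin genes with 100 UMIs over both jaws, 2 were past 2-fold toward the mandible over all members, against 2.53% of all genes. With shared-barcode cells all 4 were, against 3.54%. Hbb-bs, the most abundant, was at 590 CPM in shared-barcode cells, 5604 CPM in maxillary-only cells and 3252 CPM in mandibular cells.

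Amelx and Acta1 also differed inside the 7 clusters. Amelx was lower in the maxillary cells of all 7 clusters, by log2 ratios from -2.16 to -1.78, and at 27.6 to 39.0 CPM there against 108 to 142 CPM in mandibular cells. Acta1 was lower in all 7 as well. The summed level of the 12 muscle genes was 66.2 CPM in maxillary and 589 CPM in mandibular members, with Acta1 the most abundant, and that of the 12 enamel and epithelial genes 127 and 341 CPM, with Amelx the most abundant. Immune genes, with S100a9 the most abundant, summed to 18.3 and 95.2 CPM, endothelial genes, with Kdr the most abundant, to 30.3 and 41.7 CPM, and neural and glial genes, with Tubb3 the most abundant, to 144 and 138 CPM. The part of RNA from other cells in the ratios of other genes was not tested.

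Among the 44 genes higher in the maxilla Cadm2 had the largest ratio. Cadm2, a synaptic cell adhesion gene, was at 127 CPM in the maxilla and 18.7 CPM in the mandible, 6.78-fold (log2 2.76, 2.67 to 2.85), and 6.14-fold with shared-barcode cells. Mgat4c, a glycosyltransferase-like gene, was at 75.6 and 16.4 CPM, and Pcdh15, a protocadherin of hair cells, at 144 and 34.9 CPM. Dcc, the netrin receptor, was at 108 and 28.1 CPM, and Ncam2, a neural cell adhesion gene, at 130 and 39.2 CPM. Lrrtm4, which encodes a synaptic leucine-rich repeat protein, was at 362 and 114 CPM. With shared-barcode cells the log2 ratios of Dcc, Ncam2 and Lrrtm4 were 1.37, 1.32 and 1.86.

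Some of them rested on the maxillary-only cells. Pcdh15 was at 422 CPM in those and at 70.5 CPM in the shared-barcode cells, where the ratio was 2.02-fold. Nrg3, a neuregulin gene, fell under 2-fold, at 27.1 CPM against 14.2 CPM, as did Lsamp, an adhesion gene of limbic neurons, at 201 and 116 CPM. Mapk10 and Kctd8 went the other way. They were at 116 CPM each in the shared-barcode cells, at 14.2 and 26.6 CPM in the maxillary-only cells and at 31.4 and 25.2 CPM in the mandible. Of the 12 leading genes toward the maxilla, 8 had their largest share of maxillary UMIs in the cluster led by Col19a1 and Mapk10. It held 752 shared-barcode, 7 maxillary-only and 113 mandibular cells. Over the 12 genes the largest share ranged from 19.1% to 68.3%, with a median of 30.1%.

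Sema3e, a secreted axon guidance cue, was at 95.2 and 38.9 CPM, and with Dcc it made up the 2 of 22 axon guidance genes with 100 UMIs over both jaws that were past 2-fold toward the maxilla, against 2.12% of all genes. Sema3c, a cue of the same family, was past it toward the mandible, at 32.7 and 123 CPM. In shared-barcode cells Sema3e was at 99.9 CPM. The median log2 ratio of the 22 was 0.30, and 0.18 with shared-barcode cells. There again 2 were past 2-fold toward the maxilla and 1 toward the mandible, against 1.38% and 3.54% of all genes.

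**Figure D3:**
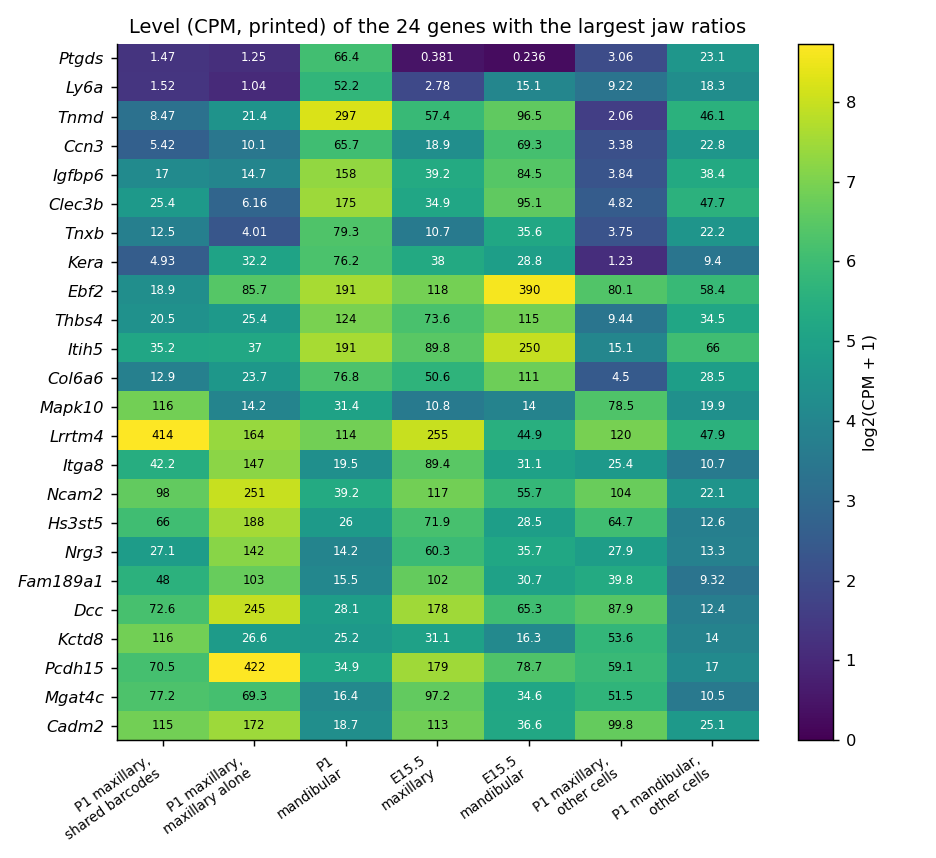
Level in CPM (printed in each cell, colored on the scale log2(CPM + 1)) of the 12 genes with the largest ratio toward each jaw, in the P1 maxillary sets, the P1 mandibular members, the E15.5 libraries and the other P1 cells. The upper 12 genes are highest in the mandibular members among the P1 sets of mesenchyme, and the lower 12 are higher in the shared-barcode cells than in mandibular members.

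The genes higher in the maxilla were long. Their median length in the GENCODE M21 annotation was 427 kb, against 39.8 kb for all 3912 genes compared and 25.2 kb for the genes higher in the mandible. Cadm2 spans 965 kb of chromosome 16 (chr16:66655421-67620908 in mm10) and Pcdh15 1550 kb of chromosome 10. Of the 145 compared genes over 500 kb, 19 were past 2-fold toward the maxilla and 1 toward the mandible, and their median log2 ratio was 0.30, against 0.01 for the 836 genes under 10 kb.

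Genes over 500 kb had similar medians in other cells of these libraries. With shared-barcode cells the median was 0.28, at E15.5 it was 0.27, and in the P1 cells outside the mesenchyme gate it was 0.32. In the last it was 0.07 under 10 kb and -0.0008 from 100 to 500 kb. Median lengths at E15.5 were 275 kb for genes higher in the maxilla, 45.0 kb for those higher in the mandible and 35.3 kb for all compared. Of the 44 genes, 34 were also past 2-fold toward the maxilla in the P1 cells outside the gate, where 2.21% of all genes compared were and Cadm2 was at 99.8 and 25.1 CPM. In the cells that failed both parts of the gate 24 of 44 were, against 2.29% of all genes. Of the 58 genes higher in the mandible, 37 were past 2-fold in the cells outside the gate, where 1.72% of all genes were, and 18 in those that failed both parts, against 2.17%.

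**Figure D4:**
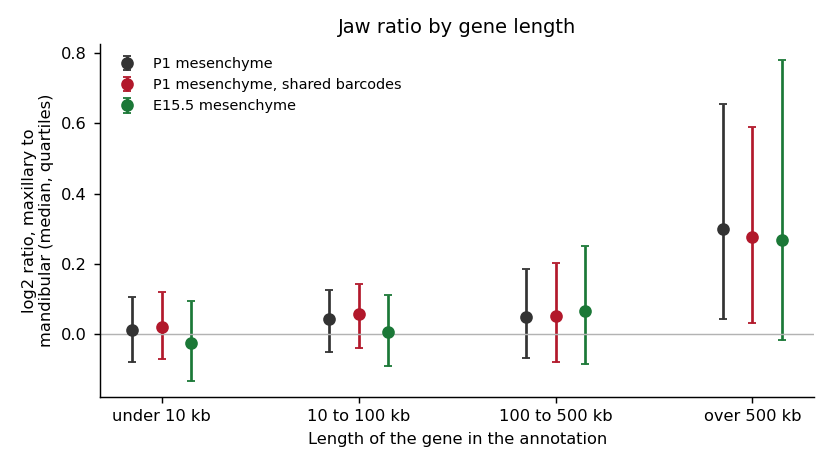
Median log2 ratio of maxillary to mandibular levels (vertical axis, bars for the quartiles over genes) by length of the gene for 3 comparisons. Genes over 500 kb have medians of 0.27 to 0.30 and those under 10 kb have medians from -0.02 to 0.02.

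The E15.5 libraries, labelled as embryos, were compared between the jaws in the same way. There 100 of 3831 genes (2.61%) were at least 2-fold higher in the maxilla and 41 (1.07%) in the mandible. Of the 44 genes higher in the P1 maxilla, 40 had the same direction at E15.5 and 26 were past 2-fold. Of the 58 higher in the P1 mandible, 57 had a ratio at E15.5, 53 had the same direction and 28 were past 2-fold. With shared-barcode cells, 43 of the 48 genes higher in the P1 maxilla had the same direction at E15.5 and 25 were past 2-fold, and of 83 genes higher in the P1 mandible with a ratio at E15.5 73 and 27 were. Across 3461 genes the log2 jaw ratios of both stages had a Pearson correlation of 0.683, and of 0.588 over 3404 genes with shared-barcode cells, as a description, since genes of 1 library share its depth and its cells.

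Past 2-fold in the same direction over all P1 members, over the shared-barcode cells and at E15.5, with 50 CPM or more in each comparison, were 33 genes, 20 toward the mandible and 13 toward the maxilla. Toward the mandible they included Ccn3, Igfbp6, Clec3b, Ebf2, Ebf3 and Meox2, and the imprinted genes Dlk1 and Zim1. Itm2a, a membrane protein gene of cartilage and muscle, was another. It was at 299 and 1175 CPM at P1 and 1016 and 2184 CPM at E15.5. Toward the maxilla they included Cadm2, Mgat4c, Pcdh15, Dcc, Lrrtm4, Ncam2 and Pax9, and Cntn6, a contactin of axons, at 411 and 147 CPM at P1 and 243 and 44.0 CPM at E15.5. Itm2a and Cntn6 were chosen after their values were seen. Fam189a1 and Itga8 were past 2-fold toward the maxilla in all 3 comparisons as well, but stood at 48.0 and 42.2 CPM in the shared-barcode cells and so were not counted there.

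Inside the 7 clusters few genes were past 2-fold. The cluster of Ptx3 and Rspo4 had 1 of 3775 toward the maxilla, Cadm2, and 10 toward the mandible, and the cluster of Enpp6 and Alpl none of 3499 and 7. The odontoblast-like cluster had 3 and 20, the proliferating one 6 and 5, that of Col19a1 and Mapk10 23 and 12, that of Gabrg3 and Cntn6 29 and 15, and that of Dpt and Gdf10 9 and 30. Past 2-fold in the same direction in 2 or more clusters were 14 genes toward the maxilla and 11 toward the mandible. The first included Cadm2 and Lrrtm4, in 3 clusters each, and Fam189a1, Dcc, Tenm2 and Sema3e. The second were Amelx, 3 globins, 2 muscle genes, Igf2, H19, Ebf1, Gpc5 and Kcnma1. Outside these 7 clusters more genes were past 2-fold with shared-barcode cells. The cluster of Pappa2 and Mia had 195 toward the maxilla and 195 toward the mandible, of 4112 genes. That of Ly6a and Clec3b had 140 and 86 of 3870, and one led by Spp1 and Ibsp 47 and 87 of 4050.

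**Figure D5:**
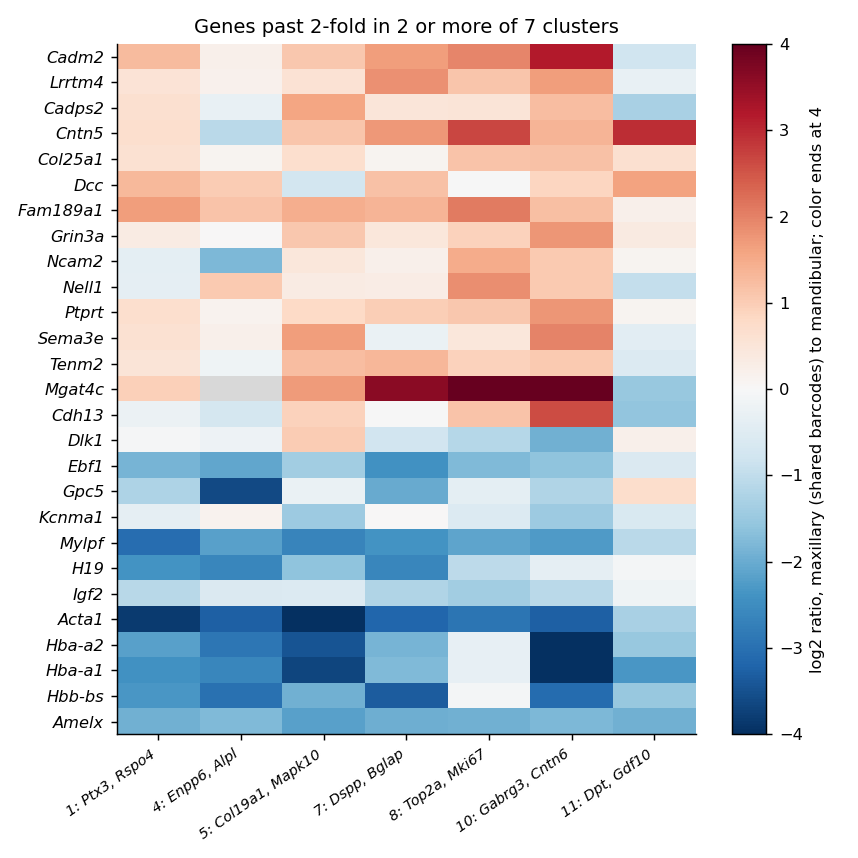
Log2 ratio of shared-barcode maxillary to mandibular levels (color, red for higher in the maxilla, ends at 4) of the genes past 2-fold in 2 or more of 7 clusters (columns, named by number and leading genes), also where a cluster's level is under 50 CPM. Amelx is blue in every column, with ratios from -2.16 to -1.78, Cadm2 is red in 6 of 7, and gray marks counts too low for a ratio.

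Signaling genes of tooth development were counted by list. At 50 CPM, 1.12% of all genes were past 2-fold toward the maxilla and 1.48% toward the mandible. With 100 UMIs over both jaws it was 2.12% and 2.53%, and 1.38% and 3.54% with shared-barcode cells. At 50 CPM none of the 2 Wnt ligands, 8 Wnt receptors or 8 Wnt targets and effectors counted was past 2-fold in either direction. Nor was any of the 13 BMP and TGF-beta genes, 9 FGF and Hedgehog genes or 4 retinoic acid genes counted. Bmp2, a ligand of the enamel knot and odontoblasts, was at 164 and 103 CPM, and Ptch1, the Hedgehog receptor, at 662 and 569 CPM. In shared-barcode cells they were at 198 and 797 CPM. With so low a share over all genes, a count of 0 in lists of this size is not a result about them. With 100 UMIs over both jaws, toward the maxilla and the mandible in turn, it was 1 and 1 of 11 Wnt ligands. Of 19 Wnt receptors 1 and 0 were, of 27 BMP and TGF-beta genes 2 and 1, and of 14 retinoic acid genes 1 and 3. None of 13 Wnt targets and effectors or 22 FGF and Hedgehog genes was. With shared-barcode cells it was 0 and 2 of 11 Wnt ligands and 0 and 1 of 19 Wnt receptors. Of 25 BMP and TGF-beta genes 1 and 2 were, and of 14 retinoic acid genes 0 and 3. Of 10 Wnt modulators counted at 50 CPM, 1 was past 2-fold, Sfrp2, which encodes a secreted Wnt antagonist, at 341 and 164 CPM. It stood at 90.4 CPM in the shared-barcode cells and 1299 CPM in the maxillary-only ones, so the direction turned with the set. At E15.5, 3 of 8 Wnt modulators counted were past 2-fold toward the maxilla, against 2.61% of all genes, of which Sostdc1, an antagonist of Wnt and BMP signals, alone had 50 CPM in both jaws, at 337 and 127 CPM. Rspo2, an enhancer of Wnt signaling, was at 316 and 172 CPM, and at 387 CPM (log2 1.17) in the shared-barcode cells.

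Among the genes that the study is about, Wnt10a, a Wnt ligand of dental epithelium and odontoblasts, was at 30.7 CPM in the maxilla and 32.5 CPM in the mandible (log2 -0.08, -0.17 to 0.01). Its direction turned with the set of cells, since it was at 38.1 CPM in the shared-barcode cells (log2 0.23, 0.14 to 0.32) and at 2.49 CPM in the maxillary-only ones. Dkk1, a secreted Wnt antagonist of the papilla and odontoblasts, was at 97.2 and 81.6 CPM (log2 0.25, 0.20 to 0.31), and at 121 CPM in shared-barcode cells. Sost, which encodes the Wnt antagonist sclerostin, was near the limit of detection, at 0.0718 and 1.13 CPM, and at 0.0363 CPM in shared-barcode cells. Of Wnt10a UMIs, 58.7% in the maxilla and 60.8% in the mandible came from the odontoblast-like cluster. Of Dkk1 UMIs, 48.5% in the maxilla and 63.5% in the mandible did.

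Lists of cartilage, cell division and the dissociation response were counted as well. None of 7 cartilage genes and 7 cell cycle genes counted was past 2-fold, where 1.12% and 1.48% of all genes were, so these counts of 0 say little about them. With 100 UMIs over both jaws 1 of 13 cartilage genes was past it, toward the maxilla, and none of 16 cell cycle genes. With shared-barcode cells 1 of 12 cartilage genes was past it toward the maxilla and 2 toward the mandible, and again no cell cycle gene. Mki67, a proliferation marker, was at 72.9 and 74.6 CPM, and at 73.4 CPM in shared-barcode cells. Of 19 genes that rise during tissue dissociation, 1 was past it, Atf3, a stress response factor, at 22.6 and 54.3 CPM, and the median was 0.09. By the rule of 100 UMIs over both jaws, 2.12% of all genes were past 2-fold toward the maxilla and 2.53% toward the mandible. With shared-barcode cells it was 1.38% and 3.54%. Of 15 palate and frontonasal genes by this rule, 5 were past 2-fold toward the maxilla and 3 toward the mandible, and with shared-barcode cells 3 and 7. Of 6 sex-linked genes 4 were past it toward the maxilla over all members and none with shared-barcode cells. No Hox gene reached 50 CPM, and the 10 Hox genes of the list summed to 1.85 and 1.76 CPM.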

How the data were processed

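Libraries were 10x Genomics 3' single-cell libraries. Per the labels the authors ran Cell Ranger with mm10, and they deposited whole-number UMI counts per gene and barcode, not normalized. Whether reads within introns were counted is not given in the sources used here. The P1 members held 69597176 maxillary and 58517129 mandibular UMIs.

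Counts were summed over members per library and divided by their total (CPM). A gene was compared at 50 CPM or more in either jaw, and a ratio of 2 or more was called past 2-fold. Gene lists were also counted at 100 UMIs or more over both jaws together, a rule added after the data were seen. Ratios have exact conditional binomial 95% intervals, and a count of 0 was set to 3. The ratio was tested on simulated data. Members were clustered with scanpy 1.11.5 (2000 variable genes, 30 components, 15 neighbours) and leidenalg 0.10.2 at resolution 0.6, in Python 3.11.15. The study's methods remove doublets after Cell Ranger. Here doublets were left in, and as an alternative the barcodes with the highest Scrublet scores were removed, 1222 of the maxillary and 813 of the mandibular members. The members, the 26 gene lists and the 17 marker classes were chosen with earlier results of these data known. Named were, per direction, the 12 genes with the largest ratio among those at least as abundant in the mesenchyme as in the library's other cells, the 5 largest of the rest, all patterning and odontogenic factors, up to 4 genes of every other list, and Wnt10a, Dkk1 and Sost. The text gives those that carry each comparison, and a few are not reported here.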

Additional observations from a re-analysis of the deposited data

Results flagged for a closer look

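The P1 libraries shared 7131 barcodes, and the mandibular copies of these were in none of the jaw comparisons. Of the copies, 4224 passed the mesenchyme gate, with a median of 2963.5 UMIs, and their summed profile differed from that of the maxillary cells with shared barcodes by 2-fold or more in 6 of 3808 genes. The cause was not tested.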

How the results depend on the processing

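Over all members 44 genes were past 2-fold toward the maxilla and 58 toward the mandible. With shared barcodes dropped from both libraries the counts were 240 and 272, and with them kept in both 22 and 38. Weighting to a common makeup the clusters with at least 50 cells of each jaw, and leaving out the others, gave 10 and 19. A minimum of 10 CPM gave 120 and 153 and one of 200 CPM gave 12 and 11, by construction of the filter. The mean of per-cell CPM gave 89 toward the maxilla and thinning each cell to 1000 UMIs 98, both of which weigh the shallow maxillary-only cells more. The other settings stayed within 1.5 times: collagen limits of 5 and 20, 2000 UMIs, 5% mitochondrial UMIs, Scrublet, barcodes with a UMI of 8 other-lineage genes left out, median-of-ratios scaling and, added after seeing the data, shared-barcode cells only and clusters of other lineages left out.

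Of 49 named genes past 2-fold at 50 CPM or more in either jaw, 44 stayed so with shared-barcode cells only, 39 with shared barcodes dropped from both libraries, and 25 at a common makeup. Directions turned for Meis2 (-1.91) and Sfrp2 (-0.86) with shared-barcode cells only, and for Meis1 (-0.77), which is under 50 CPM and so not among the 49. They turned for Mapk10 (-1.15), Hba-a1 (0.42) and Hba-a2 (0.55) without shared barcodes, and the cause was not tested. Kera turned (0.43) at a common makeup, a weighting that left out the tendon-like cluster with 91.5% of the mandibular Kera UMIs. No paired analysis was possible because each jaw is 1 library.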
